A study of Mus musculus with 26 samples.

Results

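Promoters of genes that were highly expressed in all 3 pluripotent cell types were compared for their contacts in promoter capture Hi-C (PCHi-C). A baited HindIII fragment, that is, a restriction fragment carrying an annotated promoter that was pulled down by RNA baits, was a member if a gene named on it had a median RPKM of 100 or more in each of 3 cell types, namely wild-type (WT) embryonic stem cells (ESCs), epiblast-derived stem cells (EpiSCs) and Nanog-/- ESCs. Members were thus chosen by their RPKM, the number of reads scaled to transcript length and to the size of the library. Of 15648 genes in the expression table, 788 passed, and 779 of them were named on 781 of the 19022 baited fragments that appear in the contact lists. Uck2 and Nme2 each had 2 member fragments. The other 9 genes, among them Dhx9, Lbr, Gja1, Eif1, Gm10036, Prrc2b, Sec61b and Eif3f, were named on no listed fragment, so no contact number is given for them.

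WT ESCs were E14Tg2a cells grown with serum and LIF on gelatin, and Nanog-/- ESCs were RCNβH-B(t) cells, which derive from E14Tg2a, grown the same way with hygromycin added during expansion. EpiSCs came from embryos and were grown on fibronectin in N2B27 with Activin A and bFGF. The growth protocol assigns the ESCs to 129P2/OlaHsd and the EpiSCs to 129S2, whereas the strain label reads C57BL/6 for every sample, and each cell type was 1 line, so line, medium and cell state cannot be told apart. The authors combined 2 biological replicates per cell type into 1 contact list and gave 1 median RPKM per cell type, so no value below has a replicate error. Nanog was at 418 RPKM in WT ESCs against 361 in EpiSCs and 22.3 in Nanog-/- ESCs, and the 4 pluripotency markers examined (Pou5f1, Sox2, Sall4 and Lin28a) summed to between 1836 and 2067 RPKM in each. The 4 naive-state markers in the table (Klf4, Esrrb, Dppa3 and Nanog itself) summed to 795, 372 and 215 RPKM in WT ESCs, EpiSCs and Nanog-/- ESCs (without Nanog 378, 11.7 and 193), and the 5 primed-state markers to 288, 734 and 245. The 4 fibroblast markers in the table summed to 43.9, 382 and 52.0 RPKM, and the 5 primitive endoderm markers to 4.47, 43.5 and 66.9. Whether cells of these other types contributed to the contact lists was not tested.

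Genes that every growing cell uses at high levels encode ribosomal proteins, translation factors, glycolytic and respiratory enzymes, chaperones, splicing proteins and the cytoskeleton. Their promoters are mostly rich in CpG, are held open by general transcription factors, and often lie in gene-dense chromatin. Promoters in such chromatin can be close to each other in the nucleus, and Hi-C methods detect this proximity through ligation of cross-linked fragments. A contact here is a pair of fragments that the authors called with a CHiCAGO score of 5 or more, a score that weighs the reads joining 2 fragments against the background for their distance.

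The promoters of 9 members on which the results below turn are shown, from 120 bases before the transcription start to the first 30 bases after it, 5′ to 3′ on the strand of the gene. Trim28 with Chmp2a, and Ppp4c, Aldoa and Maz with each other, are members in contact in all 3 lists. Asna1 and Rps16 each take part in a further such contact. Mad2l1 had most contacts in the WT ESC list, and Uqcrh lost all of its contacts outside WT ESCs. Capitals mark 4 short motifs found on either strand. These are GGGCGG (the core of a GC box), the letters CCAAT of the CCAAT box, CCGGAAG (a string of the ETS type) and the TATA box string TATAAA. The windows of Chmp2a, Aldoa and Asna1 hold none of the 4, which says only that these letters are not in the bases shown. The sequences are those of RefSeq in GRCm38.p6, at the start farthest upstream inside the member fragment, which need not be the one most used in these cells: Trim28 (chr7:13024032-13024181, plus strand), Chmp2a (chr7:13034748-13034897, minus strand), Ppp4c (chr7:126792518-126792667, minus strand), Aldoa (chr7:126800418-126800567, minus strand), Maz (chr7:127026976-127027125, minus strand), Asna1 (chr8:85025258-85025407, minus strand), Rps16 (chr7:28350569-28350718, plus strand), Mad2l1 (chr6:66535101-66535250, plus strand) and Uqcrh (chr4:116075041-116075190, minus strand).
Trim28: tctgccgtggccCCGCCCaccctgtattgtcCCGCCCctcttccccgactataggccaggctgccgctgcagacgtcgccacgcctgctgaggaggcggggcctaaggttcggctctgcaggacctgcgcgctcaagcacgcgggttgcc
Chmp2a: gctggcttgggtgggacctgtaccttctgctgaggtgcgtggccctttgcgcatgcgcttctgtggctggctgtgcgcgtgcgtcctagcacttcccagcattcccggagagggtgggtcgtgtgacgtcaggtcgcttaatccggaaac
Ppp4c: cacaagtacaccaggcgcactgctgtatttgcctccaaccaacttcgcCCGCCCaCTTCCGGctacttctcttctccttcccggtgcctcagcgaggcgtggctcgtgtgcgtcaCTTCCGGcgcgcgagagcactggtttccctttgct
Aldoa: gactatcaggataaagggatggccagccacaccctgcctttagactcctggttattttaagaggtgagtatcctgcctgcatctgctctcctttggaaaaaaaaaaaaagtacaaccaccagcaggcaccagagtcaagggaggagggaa
Maz: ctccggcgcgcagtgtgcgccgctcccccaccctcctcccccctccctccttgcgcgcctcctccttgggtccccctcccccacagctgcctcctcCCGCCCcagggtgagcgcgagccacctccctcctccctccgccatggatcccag
Asna1: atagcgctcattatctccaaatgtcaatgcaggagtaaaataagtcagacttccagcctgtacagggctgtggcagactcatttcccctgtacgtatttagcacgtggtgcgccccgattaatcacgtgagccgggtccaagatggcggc
Rps16: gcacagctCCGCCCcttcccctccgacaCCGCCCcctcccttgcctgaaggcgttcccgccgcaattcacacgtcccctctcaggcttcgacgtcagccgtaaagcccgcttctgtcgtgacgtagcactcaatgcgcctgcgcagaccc
Mad2l1: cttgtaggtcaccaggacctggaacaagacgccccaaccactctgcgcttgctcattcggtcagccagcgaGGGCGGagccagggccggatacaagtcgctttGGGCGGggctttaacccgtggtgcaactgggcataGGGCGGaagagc
Uqcrh: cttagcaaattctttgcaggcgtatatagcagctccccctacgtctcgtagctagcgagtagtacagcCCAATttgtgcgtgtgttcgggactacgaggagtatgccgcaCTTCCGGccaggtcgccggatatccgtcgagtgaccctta

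A RefSeq promoter starting inside the named fragment was found for 606 members and for 11215 baited fragments in all. Over the 300 bases from 250 before to 50 after the start, GGGCGG was present on either strand in 69.3% of member promoters (95% interval 65.5 to 72.8), in 52.2% of all bait promoters and in 71.5% of those of intermediate expression, which were at 10 RPKM or more in all 3 cell types. It was present in 19.7% of promoters of silent genes, which were under 1 RPKM in all 3, and in 35.7% of the 32851 promoters in the table. CCGGAAG was in 23.6% of member promoters, 12.4% of all bait promoters, 22.3% of intermediate ones and 8.86% of the table. CCAAT was in 45.9%, 37.5%, 39.1% and 37.4%, respectively. TATAAA was in 8.75% of member promoters against 11.7% of all bait promoters, 5.49% of intermediate ones, 22.9% of silent ones and 13.6% of the table. A short pyrimidine string at the start, CTTTC or its variant CTTTT on the strand of the gene within 10 bases of the start, was in 5.12% of member promoters, 3.80% of all bait promoters and 4.63% of the table. Hits of different motifs shared bases in 7 of the 606 member promoters. A match is a string of letters and not a binding site. The median GC content was 61.3% in member promoters, 58.0% in all bait promoters and 49.0% in silent ones, and the median observed over expected CpG was 0.856, 0.645 and 0.221. Promoters of intermediate expression had a GC content of 62.0% and a CpG ratio of 0.815. Their shares of GGGCGG and CCGGAAG lay inside the intervals of the members, whereas those of CCAAT (members 41.9 to 49.9) and TATAAA (6.75 to 11.3) did not.

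The expression values chose the members and are described only. The median over members was 195, 272 and 206 RPKM in WT ESCs, EpiSCs and Nanog-/- ESCs, against 3.93, 8.58 and 4.23 RPKM over all genes in the table. The highest of the 3 values was 1.54 times the lowest in the median member, was no more than 2 times the lowest in 600 members, and exceeded 4 times the lowest in 31. The 6 members with the highest lowest value were Hsp90ab1 (a cytosolic chaperone), Gm10076, Pkm2 (pyruvate kinase), Ptma (prothymosin alpha) and the ribosomal protein genes Rpl32 and Rplp1. Hsp90ab1 was at 4600 RPKM in WT ESCs against 6190 in EpiSCs and 4786 in Nanog-/- ESCs. Rplp1 was at 5099, 3453 and 4055 RPKM.

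The members just inside the threshold were Nup153 (a nuclear pore protein) with a lowest value of 100.05 RPKM, Cnot8 (a deadenylase subunit) with 100.2 and Fcf1 (a ribosome biogenesis factor) with 100.2. Just outside were Fnta with 99.9, Spag7 with 99.8 and Gnai3 with 99.7 RPKM. The contact numbers on the 2 sides of the threshold were mixed. Nup153 had 0, 1 and 1 contacts in WT ESCs, EpiSCs and Nanog-/- ESCs, whereas Spag7 had 29, 31 and 24.

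Against WT ESCs, 110 members were at least 2-fold higher in EpiSCs and 42 at least 2-fold lower, while in Nanog-/- ESCs 5 were higher (Ctsl, Lgals1, Mt1, Mt2 and Polr2a) and 3 lower (Cdh1, Ifitm2 and Ldhb). Over all genes above 0 RPKM in either cell type, 47.2% were at least 2-fold higher and 14.6% lower in EpiSCs, and 12.4% and 7.97% in Nanog-/- ESCs, and nothing is read from the difference, since the rule bounds all 3 values of a member from below. Of the 42 lower in EpiSCs, 18 were ribosomal protein genes, out of 37 among the members. The 13 members at least 4-fold lower in EpiSCs were Gapdh, Eno1, Gm5506, Hspa8, Hsp90aa1, Chchd10, Tmsb10, Rps6, Rps16, Rpl12, Rpl31, Rpl35 and Rpl39. Gapdh, the glycolytic glyceraldehyde phosphate dehydrogenase, was at 1016, 119 and 1033 RPKM in WT ESCs, EpiSCs and Nanog-/- ESCs, and Hspa8, the constitutive Hsc70 chaperone, at 1298, 119 and 1676. Many genes of these families have near-identical copies elsewhere in the genome, and the authors' counting could split reads between copies, so these values are uncertain, and the part of such reads was not tested. The 10 members at least 4-fold higher in EpiSCs included Vim (vimentin) at 134, 1162 and 231 RPKM, Scd2 (a stearoyl-CoA desaturase) at 246, 3498 and 178, and Lefty1 (a Nodal antagonist) at 246, 1680 and 285. The fibroblast markers given above were also highest in EpiSCs, and their part in these values was not tested.

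A member had a median of 4 contacts in the WT ESC list (interquartile range 1 to 9), 4 in the EpiSC list (1 to 8) and 2 in the Nanog-/- ESC list (1 to 6). Over all baited fragments the medians were 3, 3 and 2, and over intermediate promoters 4, 3 and 3. With contacts of a score of at least 7 only, the median of members was 1 in every list. The mean was 6.54, 5.53 and 4.64 contacts for members and 6.504, 5.44 and 4.80 for all baited fragments. The means of members and of all baits were thus close in each list, and the lists differed more at the lower end. The share of members without any contact was 10.9% (95% interval 8.89 to 13.3) in WT ESCs, 11.7% (9.59 to 14.1) in EpiSCs and 19.5% (16.8 to 22.4) in Nanog-/- ESCs. Over all baited fragments it was 10.3%, 15.0% and 25.3%, over silent promoters 9.62%, 18.9% and 30.0%, and over intermediate promoters 9.01%, 11.2% and 20.5%, all 3 inside the intervals of the members. The intervals here and below cover counting error between promoters or contacts in 1 list, not the spread between cultures.

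**Figure D1:**
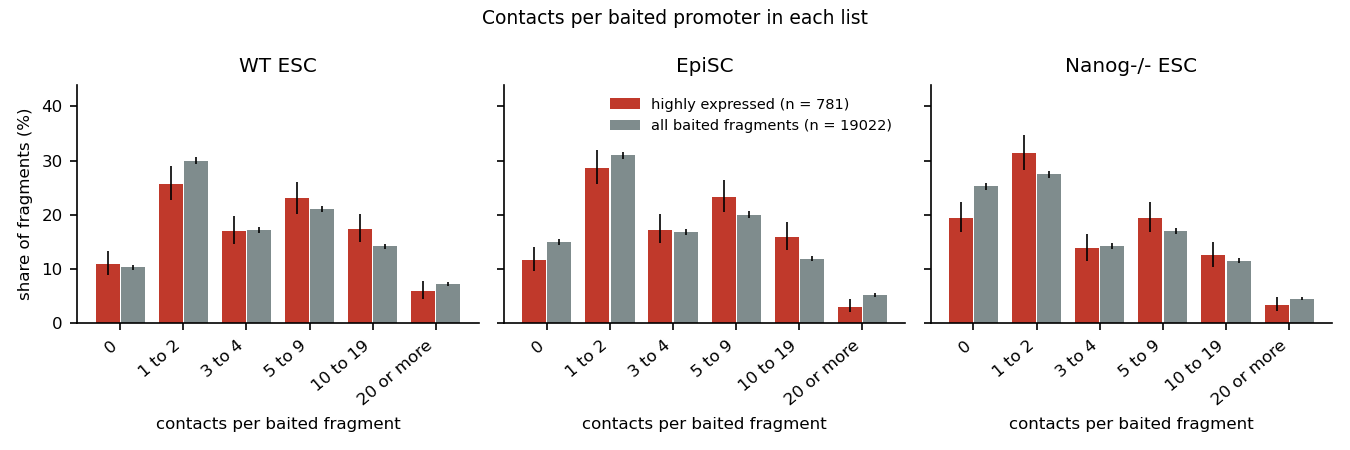
Share of fragments (%) by number of contacts in each of the 3 lists, for 781 highly expressed promoters and all 19022 baited fragments, with Wilson 95% intervals as bars. Only fragments with a contact in at least 1 list are included. In EpiSCs and Nanog-/- ESCs the share at 0 contacts was 11.7% and 19.5% for highly expressed promoters against 15.0% and 25.3% for all. Intermediate promoters, which are not drawn, were at 11.2% and 20.5%.

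A total of 547 members had at least 1 contact in every list, 43 only in WT ESCs, 39 only in EpiSCs and 12 only in Nanog-/- ESCs. These are 70.0%, 5.51%, 4.99% and 1.54% of members, against 64.9%, 7.86%, 6.00% and 1.61% of all baited fragments. The number of contacts of a member in WT ESCs was correlated across members with that in EpiSCs (Spearman's correlation 0.72, n = 781) and in Nanog-/- ESCs (0.78). Members are not independent, since neighbours share fragments, reads and chromatin. The number of contacts of members was set against 3 other measures. Its Spearman's correlation with the number of other baited fragments within 500 kb was 0.35 in WT ESCs against 0.20 in EpiSCs and 0.43 in Nanog-/- ESCs. Its correlation with the lowest of the 3 RPKM values was 0.0015, 0.02 and 0.04 in WT ESCs, EpiSCs and Nanog-/- ESCs, and with fragment length 0.05, -0.12 and 0.03. The RPKM values chose the members and span only the range from 100 upwards, so nothing is read from their correlation.

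In the WT ESC list the 51 members with fewer than 5 other baits within 500 kb had a median of 1 contact, and the 59 members with 40 or more had 11. Over all baited fragments the same 2 bins gave 1 and 11. The median number of other baits within 500 kb was 16 for members and 14 for all baited fragments. A member fragment had a median length of 5945 bp and a GC content of 48.6%, against 5704.5 bp and 47.3% over all baited fragments. The start of the named gene was annotated inside the fragment for 774 members. In 142 members (18.2%, 95% interval 15.6 to 21.04) starts of 2 or more protein-coding genes lay in the fragment, against 10.9% of all baited fragments and 18.5% of intermediate ones, and contacts of such a fragment cannot be assigned to 1 gene.

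The 8 members with most contacts in WT ESCs were Mad2l1, 2700060E02Rik, Calm3, Eef1g, Tcof1, Eif5a, Cdc37 and Nid2. Mad2l1, which encodes a spindle checkpoint protein, had 51 contacts in WT ESCs against 32 in EpiSCs and 22 in Nanog-/- ESCs. Eef1g, a subunit of the translation elongation factor that delivers aminoacyl-tRNA, had 41, 39 and 37. Its numbers were nearly level over the lists, and 28 of its 41 WT ESC contacts were also listed in EpiSCs and 31 in Nanog-/- ESCs. Tcof1, a nucleolar factor of ribosomal RNA synthesis, had 41, 52 and 31 contacts, and its strongest partners lay 125 to 132 kb away in Camk2a in both WT ESCs and EpiSCs. Calm3, a calmodulin gene, had 42, 7 and 23. Eif5a, a translation factor carrying hypusine, had 38, 26 and 36, of which 24 of the 38 in WT ESCs were with baited fragments. Cdc37, a co-chaperone of Hsp90, had 37, 14 and 15. Nid2, a basement membrane protein, had 37, 32 and 14, and the neighbouring 2700060E02Rik had 48, 41 and 26. The strongest WT ESC partners of Nid2 and 2700060E02Rik included the same unbaited fragment (chromosome 14, 20032611 to 20034741), 282 kb and 210 kb away.

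The contact numbers of the most highly expressed members were mixed. They are described only, since the RPKM values chose the members. Ptma had 1, 0 and 1 contacts and Rplp1 had 0, 1 and 0 in WT ESCs, EpiSCs and Nanog-/- ESCs. Pkm2 had 2, 0 and 1 contacts, and Gm10076 had 2, 0 and 3. Hsp90ab1 had 14, 5 and 15, with the promoter fragment of Capn11 as its strongest partner in each list (scores 21.32, 11.49 and 14.39). Rpl32 had 10, 7 and 11.

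Over 10 gene groups the median number of contacts ranged from 4 to 8 in WT ESCs. Of 60 ribosomal protein genes in the table, 37 were at 100 RPKM or more in all 3 cell types. Their median was 4, 4 and 2 contacts in WT ESCs, EpiSCs and Nanog-/- ESCs, and 4 members, Rpl12 among them, had 0 in WT ESCs. Their cis contacts in WT ESCs had a median distance of 69.6 kb. Among translation factors, 29 of 55 genes passed, on 27 listed fragments, with medians of 4, 4 and 3 contacts and a range in WT ESCs from 0 for Eif2s2 to 41 for Eef1g. Glycolysis had 12 of 16 genes with medians of 4.5, 4 and 3.5, from Eno1 (enolase) with 0, 1 and 0 contacts to Pfkl (phosphofructokinase) with 32, 16 and 24. Pkm2, a member with 2, 0 and 1 contacts, was not counted among them, since the group was built from gene symbols and lacked this one. The respiratory chain and ATP synthase had 33 of 69 genes with medians of 4, 2 and 2 and the longest median distance of the 10 groups in WT ESCs, 151 kb. Its extremes were Ndufc2 with 0, 3 and 0 contacts and Atp5k with 34, 13 and 24.

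The proteasome had 19 of 29 genes and the highest group median in WT ESCs, 8 contacts against 6 in EpiSCs and 4 in Nanog-/- ESCs. Psmd2, a regulatory subunit, had 24, 8 and 13, and Psmd12 had 0, 1 and 0. Chaperones had 17 of 27 genes with medians of 5, 4 and 3, between Cct5 (1, 1 and 1) and Hsp90ab1. RNA binding and splicing proteins had 25 of 38 genes with medians of 5, 4 and 3, between Hnrnpa2b1 (0, 1 and 0) and Hnrnpc (20, 9 and 5). The cytoskeleton had 13 of 27 genes with medians of 7, 8 and 2, between Actb (0, 2 and 0) and the tubulin gene Tubb2c (21, 13 and 16). Chromatin proteins had 13 of 61 genes with medians of 4, 2 and 2, between Anp32b (0, 1 and 1) and Hmgb1 (35, 5 and 17). Pluripotency factors had 7 of 21 genes (Pou5f1, Sox2, L1td1, Lin28a, Trim28, Utf1 and Tdgf1) with medians of 4, 3 and 2, between Lin28a (2, 0 and 1) and Trim28 (7, 3 and 5). Sox2, a core pluripotency factor, had 3 contacts in WT ESCs against 9 in EpiSCs and 0 in Nanog-/- ESCs, and Pou5f1 had 5, 1 and 3.

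The members took part in 5020, 4243 and 3573 contacts in WT ESCs, EpiSCs and Nanog-/- ESCs, counting a contact between 2 members once. Their cis contacts were shorter than those of other baits in each list. The median distance between fragment midpoints was 105.6 kb in WT ESCs (95% interval of the median 101.8 to 110.2), 101.8 kb in EpiSCs (97.3 to 105.5) and 63.2 kb in Nanog-/- ESCs (58.9 to 66.7). Over all contacts it was 138.7, 140.6 and 74.1 kb. For intermediate promoters it was 116, 119 and 64.5 kb, the last inside the interval of the members, and for silent promoters 164, 162 and 89.6 kb. At a score of at least 7 the members' medians were 89.1, 97.0 and 45.3 kb, with that of EpiSCs the longest. The share of members' cis contacts under 50 kb was 30.8% in WT ESCs against 29.3% in EpiSCs and 44.5% in Nanog-/- ESCs, and over all contacts 24.2%, 22.4% and 40.8%.

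**Figure D2:**
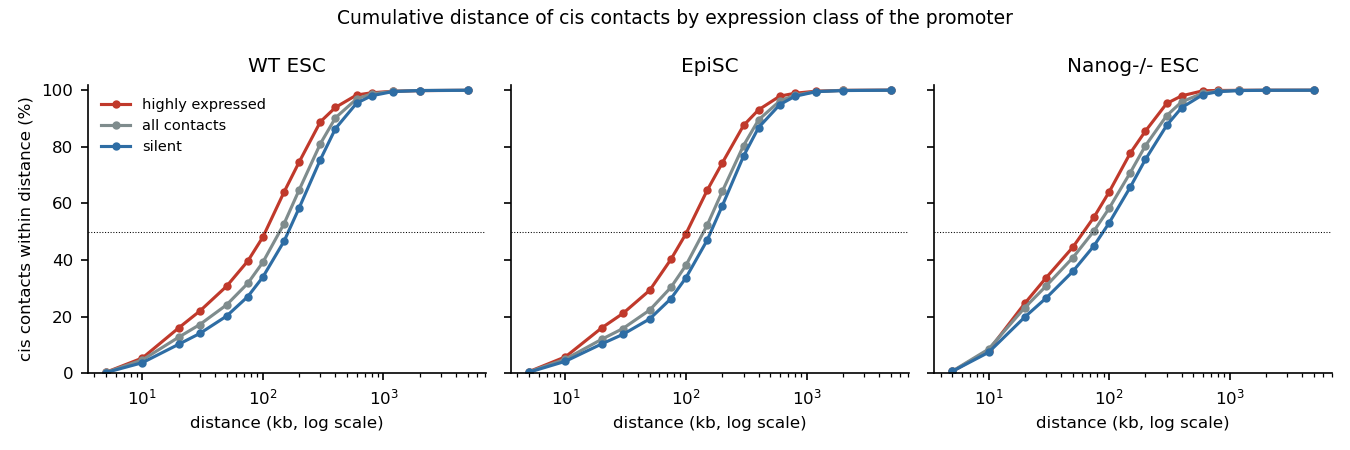
Cumulative share of cis contacts (%) within a given distance (kb, log scale) for highly expressed promoters, all contacts and silent promoters in each list. The curve of highly expressed promoters reached 50% at the shortest distance in every list, at 105.6, 101.8 and 63.2 kb.

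Contacts over 800 kb were rare. They made up 46 of the 4950 cis contacts of members in WT ESCs (0.929%, 95% interval 0.697 to 1.24), 46 of 4212 in EpiSCs (1.09%, 0.820 to 1.45) and 4 of 3547 in Nanog-/- ESCs (0.113%, 0.0439 to 0.290). Over all contacts the shares were 1.30%, 1.78% and 0.370%. For intermediate promoters they were 1.00%, 1.40% and 0.278%, all 3 inside the intervals of the members. The 46 in WT ESCs came from 32 members and those in EpiSCs from 31, and only 4 of the WT ESC set were also in the EpiSC list, that is 8.70% (3.43 to 20.3) against 23.7% of all WT ESC contacts over 800 kb. Cap1, an actin-binding protein, had 6 in WT ESCs, and Mad2l1 had 5 in both WT ESCs and EpiSCs. Sox2 had 3 in EpiSCs, to unbaited fragments about 0.835 Mb away and beyond.

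Contacts between chromosomes depended on 1 promoter. Members had 70 of them in WT ESCs (1.39%, 95% interval 1.11 to 1.76), 31 in EpiSCs (0.731%) and 26 in Nanog-/- ESCs (0.728%), against 0.782%, 0.444% and 0.462% of all contacts. Mad2l1 (GRCm38, as for all positions here, chromosome 6, 66534905 to 66540307) held 44, 26 and 20 of these. All of its partners in other chromosomes, 48 fragments over the lists, lay between 46287850 and 47705459 on chromosome 11, and 16 were listed in all 3 cell types. The highest scores there were 268, 264 and 161 in WT ESCs, EpiSCs and Nanog-/- ESCs, at fragments that held no exon or intron of a coding gene. Among partners in all 3 lists were also the fragments of Dppa1 and Timd2. Without Mad2l1 the share of contacts between chromosomes was 0.523% (0.357 to 0.766), 0.119% (0.0507 to 0.278) and 0.169% (0.0775 to 0.368), which is below that of all contacts, Mad2l1 included, in each list. Intermediate promoters were below it too, at 0.406%, 0.287% and 0.287%, inside these intervals in WT ESCs and Nanog-/- ESCs. So were silent promoters, at 0.656%, 0.368% and 0.368%, so a low share is not particular to members. What joins Mad2l1 to this part of chromosome 11 in the lists was not tested. Only 1 other such contact of a member was in all 3 lists, between Fam136a on chromosome 6 and its pseudogene fragment Fam136b-ps on chromosome 15, a pair of similar sequences.

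Members had promoters as partners more often than other baits did. Seen from the members, 42.1% of contacts led to another baited fragment in WT ESCs (95% interval 40.7 to 43.4), 36.0% in EpiSCs (34.6 to 37.5) and 41.9% in Nanog-/- ESCs (40.3 to 43.5). Seen from all baited fragments the shares were 37.5%, 31.0% and 36.0%, from intermediate promoters 39.7%, 33.3% and 38.5%, and from silent promoters 38.99%, 32.4% and 36.3%. The partner was itself a member in 3.33%, 3.47% and 2.76% of contacts from members, against 1.74%, 1.50% and 1.66% from all baited fragments, 2.55%, 2.25% and 2.34% from intermediate promoters and 0.797%, 0.659% and 0.719% from silent promoters. A silent partner was found for 4.78%, 3.36% and 4.17% of contacts from members, against 9.65%, 6.89% and 8.34% from all baited fragments and 5.21%, 3.86% and 5.17% from intermediate promoters. At least 1 member partner was listed for 17.9% of members in WT ESCs against 16.3% in EpiSCs and 11.01% in Nanog-/- ESCs. The shares were 9.50%, 7.21% and 6.88% of all baited fragments and 13.6%, 10.8% and 9.69% of intermediate promoters. Only the last of these lay inside the interval of the members (9.004 to 13.4).

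Such shares depend on how many highly expressed promoters lie within reach. Among the 609 possible pairs of members under 800 kb apart on a chromosome, 85 (14.0%, 95% interval 11.4 to 16.9) were listed in WT ESCs, 74 (12.2%, 9.79 to 15.0) in EpiSCs and 50 (8.21%, 6.28 to 10.7) in Nanog-/- ESCs. Of all 231934 possible pairs of baited fragments, 9.84%, 6.79% and 7.06% were listed. At 50 to 100 kb, 34.5% of member pairs were listed in WT ESCs (23.6 to 47.3), 37.9% in EpiSCs (26.6 to 50.8) and 29.3% in Nanog-/- ESCs (19.2 to 42.0), against 22.9%, 16.7% and 19.4% of all pairs, the last of which lies inside the interval of the members. At 200 to 400 kb the rates were 7.59% (4.398 to 12.8), 5.70% (3.03 to 10.5) and 3.16% (1.36 to 7.19), against 8.88%, 5.54% and 4.45%. At 400 to 800 kb they were 4.10% (2.24 to 7.38), 2.46% (1.13 to 5.26) and 0.410% (0.0724 to 2.28), against 1.89%, 1.19% and 0.657%, so that the interval left out the rate of all pairs in WT ESCs only.

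Had each distance bin held the rate of all promoter pairs, 67.2 contacts between members would be listed in WT ESCs against 47.0 in EpiSCs and 50.2 in Nanog-/- ESCs. The listed numbers were 1.26 times this in WT ESCs (Poisson 95% interval 1.01 to 1.56), 1.58 times in EpiSCs (1.24 to 1.98) and 0.996 times in Nanog-/- ESCs (0.739 to 1.31). For pairs of intermediate promoters the ratios were 1.05, 1.18 and 1.06, and for pairs of silent promoters 1.29, 0.997 and 0.997. Pairs of a member with a silent promoter were listed less often than promoter pairs at large, at 0.684 (0.599 to 0.777), 0.608 (0.512 to 0.717) and 0.634 (0.536 to 0.744) times the number at the rate of all pairs. No such ratio was computed for pairs of an intermediate with a silent promoter. The shares of silent partners given above were near each other for members and intermediate promoters. The low ratio is thus not shown to be particular to members. For contacts between 2 members the interval thus lay above 1 in EpiSCs and, with a lower end of 1.01, in WT ESCs, and spanned 1 in Nanog-/- ESCs. In WT ESCs pairs of silent promoters had a similar ratio. The interval takes pairs as independent, though pairs can share a fragment, so no difference between the lists is read from it.

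**Figure D3:**
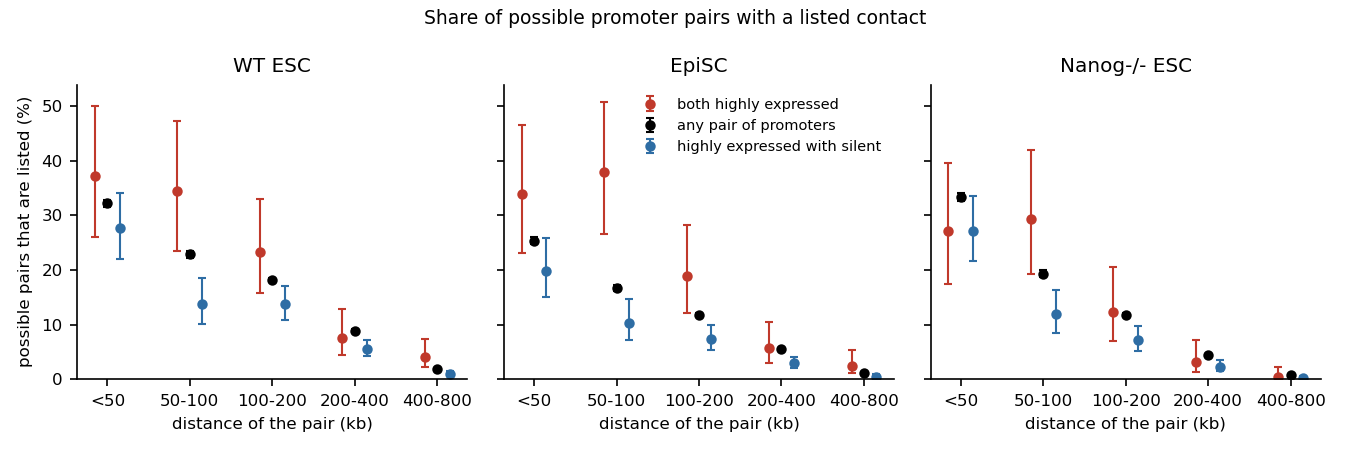
Share of possible cis pairs of baited fragments that were listed (%), by distance of the pair (kb), for pairs of highly expressed promoters, any pair, and pairs of a highly expressed with a silent promoter, with Wilson 95% intervals. At 50 to 100 kb pairs of highly expressed promoters were at 34.5%, 37.9% and 29.3% and any pair at 22.9%, 16.7% and 19.4%, which lies inside the members' interval in Nanog-/- ESCs only. Under 50 kb the rate of any pair lay inside the members' interval in each list. Pairs of an intermediate with a silent promoter were not computed.

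Over the 3 lists there were 120 different contacts between members, all within a chromosome, of which 28 were in 3 lists, 34 in 2 and 58 in 1. One of the 28 joined the 2 member fragments of Nme2. Among the 28, the highest lowest score belonged to Trim28, a corepressor of endogenous retroviruses, with Chmp2a, an ESCRT-III subunit, 12.1 kb apart. Their contact had 88 reads and a score of 28.53 in WT ESCs, 52 reads and 14.49 in EpiSCs, and 54 reads and 29.60 in Nanog-/- ESCs. The next were Slc3a2 (an amino acid transporter subunit) with Wdr74 (a ribosome biogenesis factor) at 7.93 kb and scores of 12.85, 11.71 and 12.83, and Myl12b (a myosin light chain) with 2900073G15Rik at 8.56 kb and 10.37, 23.19 and 11.42. Prdx2, a peroxiredoxin, and Asna1, an ATPase for insertion of tail-anchored proteins, were joined over 52.7 kb with scores of 10.28, 25.38 and 12.71. Ifitm2 and Ifitm3, interferon-induced membrane proteins, were joined over 56.3 kb with 9.55, 8.87 and 11.73. Supt5h, a transcription elongation factor, and Rps16 were joined over 8.45 kb with 12.73, 8.24 and 13.90.

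Summed over the 3 lists, Ppp4c (8), Maz (7) and, with 6 each, Aldoa, Eif3g, Mrpl12 and Prdx2 had most contacts with other members. On chromosome 7, Ppp4c (catalytic subunit of protein phosphatase 4; 126785684 to 126793153), Aldoa (aldolase; 126797843 to 126805040) and Maz (a zinc finger factor; 127024649 to 127027531) were joined pairwise in every list. Their promoters are among those printed above, with CCGGAAG on the reverse strand at 2 places in that of Ppp4c and a GC box in those of Ppp4c and Maz. Ppp4c and Aldoa lay 12.0 kb apart, and Maz lay 225 kb from Aldoa and 237 kb from Ppp4c. Aldoa with Maz had 13, 7 and 10 reads and scores of 11.97, 7.71 and 14.62 in WT ESCs, EpiSCs and Nanog-/- ESCs. Ppp4c with Maz had 7, 8 and 6 reads and scores of 5.86, 6.71 and 7.06. Mrpl12, a mitochondrial ribosomal protein, was joined in every list to Arhgdia 99.5 kb away and to P4hb (protein disulfide isomerase) 90.5 kb away. Eif3g, a subunit of initiation factor 3, was joined in every list to Ppan 10.98 kb away and to Cdc37 at 250.3 kb.

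Of contacts seen from members, 57.9% in WT ESCs against 63.97% in EpiSCs and 58.1% in Nanog-/- ESCs led to unbaited fragments. In WT ESCs 47.1% of these (95% interval 45.3 to 48.9) held an exon of a coding gene, 19.5% only intron and 33.4% lay between genes, against 38.4%, 23.5% and 38.1% for all baited fragments. In EpiSCs the exon share was 39.1% (37.3 to 41.0) against 30.8%, and in Nanog-/- ESCs 50.6% (48.4 to 52.7) against 42.0%. For intermediate promoters it was 44.1%, 34.9% and 48.5%. The partner lay inside the member's own gene in 9.30%, 8.47% and 13.1% of cases. For all baited fragments this share was 8.08%, 8.26% and 12.3%, and for intermediate promoters it was higher, at 12.2%, 11.01% and 18.3%. Cis partners lay downstream of the member, in the direction of its transcription, in 47.5% of WT ESC contacts (46.1 to 48.9), 47.2% in EpiSCs (45.7 to 48.7) and 49.0% in Nanog-/- ESCs (47.4 to 50.6), against 52.4%, 52.1% and 52.8% over all baits. For intermediate promoters the downstream share was 51.7%, 48.5% and 52.2%, inside the interval of the members in EpiSCs only.

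Few unbaited fragments were reached by several members. In WT ESCs 172 of 2773 (6.20%) were in contact with 2 or more members, in EpiSCs 123 of 2627 (4.68%) and in Nanog-/- ESCs 86 of 2010 (4.28%), and none with more than 3. A fragment in Psmd2 (chromosome 16, 20658311 to 20661364) was in contact with Eif2b5, Eif4g1 and Psmd2, which encode initiation factor and proteasome subunits, in all 3 lists. A fragment in Gng7 (chromosome 10, 80995346 to 81003078) was in contact with Oaz1, Sgta and Timm13 in WT ESCs and EpiSCs and with Oaz1 and Timm13 in Nanog-/- ESCs. One in Polr2a (chromosome 11, 69734054 to 69739913) was in contact with Eif5a, Fxr2 and Polr2a in WT ESCs and Nanog-/- ESCs and with Eif5a and Polr2a in EpiSCs.

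Of the 5020 WT ESC contacts of members, 41.6% (95% interval 40.3 to 43.0) were also in the EpiSC list, 42.3% (40.9 to 43.7) in the Nanog-/- ESC list and 26.0% (24.8 to 27.2) in both. Over all WT ESC contacts the shares were 39.6%, 41.8% and 24.9%. In the other direction, 49.2% of the members' EpiSC contacts and 59.4% of their Nanog-/- ESC contacts were also in the WT ESC list, against 45.5% and 56.0% of all contacts of those lists. A contact missing from a list may have fallen under the score of 5 there, and sharing went along with reads. Members' contacts with 6 to 10 reads in WT ESCs were also in EpiSCs in 27.6% and in Nanog-/- ESCs in 19.8% of cases, and those with over 50 reads in 69.8% and 89.5%. At equal distance, members' contacts under 50 kb were in EpiSCs more often than all contacts, at 54.2% (51.7 to 56.7) against 48.9%, and in Nanog-/- ESCs less often, at 66.2% (63.8 to 68.5) against 71.3%. From 200 to 400 kb they were below all contacts in both, at 28.7% (25.9 to 31.7) against 33.5% in EpiSCs and 21.6% (19.1 to 24.3) against 25.5% in Nanog-/- ESCs. Contacts of WT ESCs between 2 members were also in EpiSCs in 51 of 85 cases (60.0%, 49.4 to 69.8) and in Nanog-/- ESCs in 35 (41.2%, 31.3 to 51.8). They were in both in 28 (32.9%). The shares of all WT ESC contacts between 2 baited fragments were 43.3%, 46.8% and 29.4%. Members' contacts with unbaited fragments were kept in 39.4% and 39.1%.

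**Figure D4:**
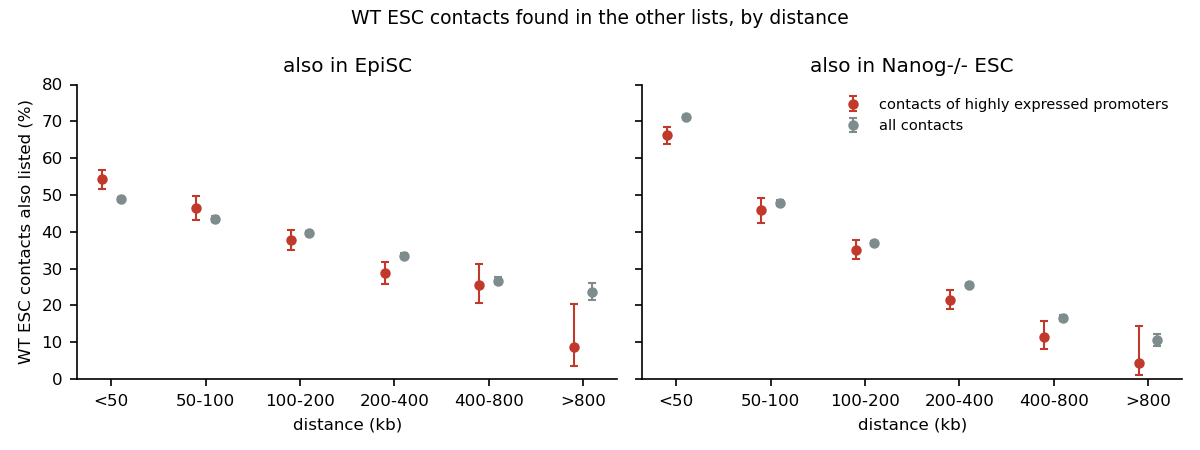
Share of WT ESC contacts (%) that were also listed in EpiSCs (left) or Nanog-/- ESCs (right), by distance (kb), for highly expressed promoters and all contacts, with Wilson 95% intervals. Under 50 kb the share for highly expressed promoters was 54.2% in EpiSCs, above the 48.9% of all contacts, and 66.2% in Nanog-/- ESCs, below the 71.3%.

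A change in contact number was called where the numbers of a fragment in 2 lists differed at least 2-fold and summed to 10 or more. In EpiSCs against WT ESCs 36 of 341 members were higher (10.6%, 95% interval 7.72 to 14.3) and 75 lower (22.0%, 17.9 to 26.7), close to the 11.2% and 23.6% of all 7444 baited fragments with such a sum. In Nanog-/- ESCs 10 of 309 were higher (3.24%, 1.77 to 5.85) and 79 lower (25.6%, 21.02 to 30.7), against 4.51% and 22.0% of 6895. At a score of at least 7, 27.5% of members were lower in EpiSCs (20.6 to 35.7) and 15.2% in Nanog-/- ESCs (10.03 to 22.2). The order of the 2 cell types was thus the reverse of that at a score of 5, and their intervals overlap at both scores. No share over all baited fragments is given at the higher score, so nothing is read from these 2 values about members. The lists differ in size, with 100492, 87369 and 74931 different contacts. After scaling to list size 12.6% of members were higher and 16.4% lower in EpiSCs, against 13.6% and 16.9% of all. In Nanog-/- ESCs 6.15% were then higher (3.97 to 9.40) and 10.4% lower (7.43 to 14.3), against 10.4% and 9.89%. Only the share of members higher in Nanog-/- ESCs after scaling had an interval that left out the share of all baits. The same call was made in both comparisons for 4 members that were higher and 22 that were lower, and both comparisons share the WT ESC list. These are 1.39% and 7.64% of the 288 members with a sum of 10 or more in both, against 0.951% and 8.75% of all baited fragments.

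**Figure D5:**
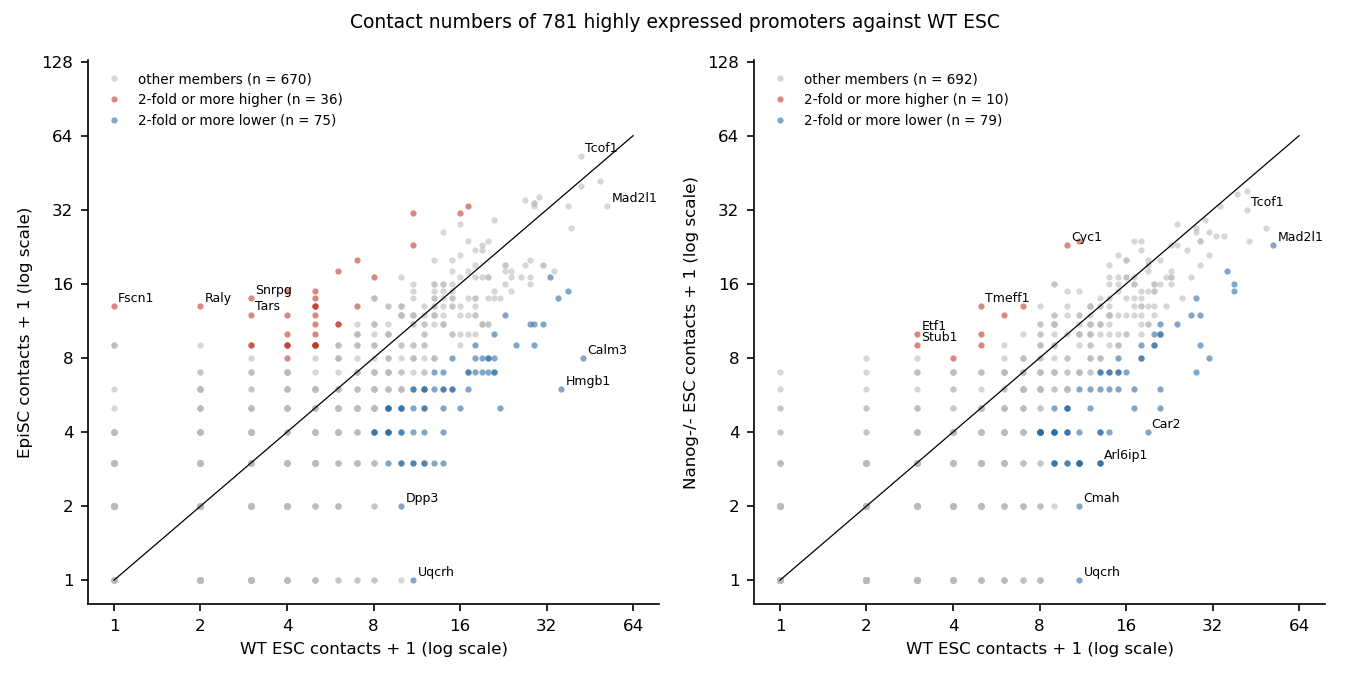
Contacts + 1 of each of 781 highly expressed promoters (points) in EpiSCs (left) and Nanog-/- ESCs (right) against WT ESCs, both axes on a log scale, with calls of at least 2-fold and a sum of at least 10 in colour and the line of equality. In EpiSCs 36 members were higher and 75 lower, and in Nanog-/- ESCs 10 were higher and 79 lower.

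By fold of contacts + 1, the measure used for all 4 rankings here, the largest gains in EpiSCs were those of Fscn1, Raly, Snrpg and Tars. Fscn1, which bundles actin, had 0, 12 and 1 contacts in WT ESCs, EpiSCs and Nanog-/- ESCs, at 252, 371 and 209 RPKM. Raly, an RNA-binding protein of the hnRNP family, had 1, 12 and 1 contacts, and Snrpg, a spliceosomal Sm protein, had 2, 13 and 3. Tars, threonyl-tRNA synthetase, had 2, 11 and 4, and in EpiSCs its strongest partners were 2 other members, Sub1 at 597 kb (score 9.93) and Brix1 at 913 kb (8.13). The largest losses in EpiSCs were those of Uqcrh, Hmgb1, Calm3 and Dpp3. Uqcrh, a subunit of respiratory complex III, had 10 contacts in WT ESCs, all with baited fragments, and 0 in both other lists, at 190, 285 and 193 RPKM. Hmgb1, a chromatin protein, had 35, 5 and 17 contacts at 171, 157 and 186 RPKM, and Dpp3, a peptidase, had 9, 1 and 5.

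The largest gains in Nanog-/- ESCs were those of Etf1, Stub1, Tmeff1 and Cyc1. Etf1, the translation termination factor, had 2, 8 and 9 contacts in WT ESCs, EpiSCs and Nanog-/- ESCs, and Stub1, a ubiquitin ligase that binds chaperones, had 2, 3 and 8. Tmeff1 had 4, 6 and 12, and Cyc1, cytochrome c1, had 9, 5 and 22. The largest losses there were those of Uqcrh, Cmah, Car2 and Arl6ip1, the last tied with Rpl36al and Tcp1. Car2, a carbonic anhydrase, had 18, 21 and 3 contacts, all 18 in WT ESCs with unbaited fragments at a median of 307 kb. Its strongest partner in every list was the same fragment 307 kb away (chromosome 3, 15194356 to 15196085), with scores of 13.92, 25.85 and 7.88. Cmah, a sialic acid hydroxylase, had 10, 5 and 1, and Arl6ip1, an endoplasmic reticulum membrane protein, had 12, 5 and 2.

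Changes in contact number are given beside those in RNA as a description, since the RPKM values chose the members. Over all 781, Spearman's correlation between the log2 ratio of RPKM and that of contacts + 1 was -0.04 for EpiSCs and 0.04 for Nanog-/- ESCs against WT ESCs. The median RPKM ratio of EpiSCs to WT ESCs was 1.22 for the 36 members higher in contacts, 1.40 for the 75 lower and 1.31 for the 230 within 2-fold. The 13 members whose RPKM was at least 4-fold lower in EpiSCs had 88 contacts in WT ESCs and 94 in EpiSCs, and the 10 at least 4-fold higher had 94 and 76. Gapdh, at 1016 and 119 RPKM, values that are uncertain as said, had 28 contacts in WT ESCs and 32 in EpiSCs. Vim, at 134 and 1162 RPKM, had 7 and 13.

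By gene group, calls were few and mostly downward. Of 17 ribosomal protein members with a sum of 10 or more, 1 was higher and 4 lower in EpiSCs, and of 16, 0 and 4 in Nanog-/- ESCs. For the respiratory chain it was 0 higher and 5 lower of 14, and 1 and 5 of 13. Translation factors had 1 and 4 of 13, and 0 and 2 of 12. The proteasome had 1 and 3 of 11, and 0 and 3 of 11, and RNA binding and splicing proteins 1 and 2 of 13, and 0 and 4 of 12. Glycolysis had 0 and 1 of 5, and 0 and 0 of 6. The cytoskeleton had 2 and 1 of 9, and 0 and 0 of 6, and chaperones 0 and 2 of 8, and 0 and 2 of 7. Chromatin proteins had 0 and 2 of 3, and 0 and 1 of 3, and pluripotency factors 1 and 1 of 3, and 0 and 0 of 1. These counts are too small to set a group apart from the shares of all baited fragments given above.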

How the data were processed

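For PCHi-C the labels list 5 lanes from WT ESCs, 2 from EpiSCs and 5 from Nanog-/- ESCs, and for RNA-seq 3, 4 and 3 samples. Reads were mapped and filtered with HiCUP (Bowtie 1.1.0, per the labels), and CHiCAGO called interactions between HindIII fragments after 2 replicates were combined. The authors deposited for each interaction the count of reads and the CHiCAGO score, none under 5. The deposited RPKM values are medians per group. The column named BT12 was taken as Nanog-/- ESCs, from the series description. The submitters' notes name Trim Galore, TopHat and DESeq2 for RNA-seq without versions. Columns with the authors' log2 fold changes and p-value columns were deposited too and were not used. Transcription factor ChIP-seq of EpiSCs was not used.

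Each pair of fragments was counted once, with its higher score. All 96056 fragments ended at HindIII sites of GRCm38. Distances are between midpoints. Fragments named in any list were taken as baits. Member groups, gene lists and classes were chosen with earlier results of these data known. No statistical test was made, since each cell type is 1 list. Shares have Wilson 95% intervals and medians order-statistic 95% intervals. Genes named in the text are those with highest expression, most contacts, most contacts with members, largest changes in contact number, or the strongest contacts in all lists, those next to the threshold, and the extremes of each gene group. Some items that this rule names are not reported here. Members mentioned for a single further value (such as Sox2, Gapdh, Vim, Cap1 and Fam136a) were chosen after their values were seen. Library depth cannot be read from called contacts, which hold 2177284, 1651286 and 1438555 reads in WT ESCs, EpiSCs and Nanog-/- ESCs, with medians of 13, 11 and 11 a contact. Counting and intervals were tested on simulated data. Python 3.11.15, pandas 2.3.3, numpy 2.4.6, scipy 1.17.1 and matplotlib 3.10.9 were used.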

Additional observations from a re-analysis of the deposited data

How the results depend on the processing

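No paired analysis was possible because each cell type has 1 combined contact list and 1 median RPKM per gene, which carry no replicate numbers, so no replicate could be left out either. Of 82 values recomputed under other settings, 52 stayed inside the 95% interval of the reported value. A further setting, fragments with a single gene name, left out no member, since 0 have more than 1 name, and is not counted. A score of at least 7 moved most. It gave a median of 1 contact in each list, median distances of 89.1, 97.0 and 45.3 kb, baited partners in 47.2%, 40.8% and 46.7% of contacts, and 7.06%, 7.22% and 4.27% of pairs of members listed. WT ESC contacts of that score were also in EpiSCs in 58.2%, in Nanog-/- ESCs in 60.6% and in both in 42.7% of cases, and 27.5% of members were lower in EpiSCs and 15.2% in Nanog-/- ESCs. No shares over all baited fragments are given at that score, so these values are not set against other promoters. With at least 200 RPKM the median distances were 101.04 kb in WT ESCs and 96.0 kb in EpiSCs, and baited partners in Nanog-/- ESCs 43.9%. With at least 50 RPKM they were 112 and 112 kb, and baited partners 39.3%, 33.4% and 39.2%. Scaling to list size gave 16.4% lower in EpiSCs and 6.15% higher and 10.4% lower in Nanog-/- ESCs. Among settings chosen after seeing the data, the 632 members with 1 coding start in the fragment had a median distance of 110.3 kb in WT ESCs and 40.9% of contacts also in Nanog-/- ESCs. Leaving out Mad2l1 moved none of the 3 median distances out of its interval, but it did move the shares of contacts between chromosomes, as given above. Counting the 9 unlisted genes with 0 contacts moved none of the 3 median contact numbers out of its interval. The cause was not tested, except that a higher score leaves fewer contacts and other RPKM thresholds change the members. Contacts with few reads limit what sharing can show.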
